A study of Mus musculus with 12 samples.

Results

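The 6 genes described here, *Sox2*, *Pax6*, *Hes1*, *Hes5*, *Nes* and *Vim*, are widely used to recognise radial glia, and all of them were among the 4859 coding genes of the deposited expression table, where each was found by its exact symbol. The table lists only genes that had passed a differential test on these same libraries, so the presence of a gene in it already says that it differed somewhere. RNA was sequenced from cells of the cerebral cortex of mouse embryos that carried the transgene of the line Tg(Ebf2-EGFP)FB58Gsat, in which EGFP is made from a bacterial artificial chromosome that holds the *Ebf2* locus. Cells with EGFP (Ebf2-EGFP+) and cells without it (Ebf2-EGFP-) were separated by fluorescence-activated cell sorting on embryonic day E11.5, E13.5 or E15.5, which gave 6 groups of 2 libraries each and 12 libraries in all. Every group came from embryos with the transgene, the embryos of several dams were pooled for a sort, and no other genotype or treatment was compared. According to the study's methods and earlier work on the line, EGFP marks preplate neurons early and mostly Cajal-Retzius neurons, the Reln-secreting cells of the outermost cortical layer, late, while the Ebf2-EGFP- cells are whatever else the dissected cortex held, progenitors first and later also cortical plate neurons.

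Radial glia are the neural stem cells of the embryonic cortex. They line the ventricle, span the wall with a long process, and divide to renew themselves and to give rise to intermediate progenitors and neurons. Contact with a neighbour that carries a Notch ligand releases the intracellular part of the Notch receptor, which joins the DNA-binding protein RBPJ and switches on *Hes1* and *Hes5*, and the HES proteins hold the proneural genes down. SOX2 and PAX6 are transcription factors of these cells, and nestin and vimentin are the intermediate filament proteins of their processes.

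The values are FPKM, the fragments mapped to a transcript scaled to its length and to the size of the library, which can be compared between genes because they are scaled to transcript length. Differences were tested on log2(FPKM + 1) with limma over all 12 libraries, and p-values were adjusted over all 4859 listed genes by the method of Benjamini and Hochberg, with 0.05 as the threshold. Adding 1 understates the change of genes with low values, which matters for *Hes1* and *Hes5* in Ebf2-EGFP+ cells. Ratios of mean FPKM are therefore given beside the log2 differences.

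The sort could be checked with *Ebf2* itself. It measured 61.2 and 49.1 FPKM in the Ebf2-EGFP+ libraries at E11.5, then 6.66 and 4.32 at E13.5, then 2.83 and 5.14 at E15.5. The Ebf2-EGFP- libraries held 1.17 and 0.952, then 1.54 and 1.05, then 0.103 and 0.0644 FPKM. Every Ebf2-EGFP+ library was above every Ebf2-EGFP- library of its stage. Replicates of a group correlated at Pearson's r between 0.981 and 0.992 over the listed genes. RNA of markers of cells other than radial glia also differed between the sorted populations. All 10 neuron markers were higher in Ebf2-EGFP+ cells at E11.5, where their summed level was 3375 to 3872 FPKM against 714 to 772 in Ebf2-EGFP- cells. At E15.5, 5 of them were higher, 1 was lower and 4 showed no call, with sums of 3735 to 4034 against 2359 to 2870 FPKM. The shares of all listed genes called higher were 36.8% at E11.5 and 25.8% at E15.5. Of 8 markers of the meninges all 8 were in the table, summed to 113 to 133 FPKM in Ebf2-EGFP- and 42.8 to 47.9 in Ebf2-EGFP+ cells of E11.5, but to at most 5.67 FPKM in any group later. Of 10 endothelial and mural markers 5 were in the table, summed to 10.3 to 15.1 FPKM in Ebf2-EGFP- and 1.51 to 2.13 in Ebf2-EGFP+ cells at E11.5. Of 8 erythroid markers 3 were in the table, and at E11.5 they summed to 1205 to 2605 FPKM in Ebf2-EGFP- cells against 31.2 to 88.6. In Ebf2-EGFP- cells that sum was 12.2 to 13.6 FPKM at E13.5 and 5.81 to 23.1 at E15.5. All 8 markers of the ganglionic eminence and its interneurons were in the table, summed to 177 to 234 FPKM in Ebf2-EGFP- and 9.55 to 12.7 in Ebf2-EGFP+ cells at E11.5. Their sum in Ebf2-EGFP- cells was 49.4 to 53.9 FPKM at E13.5 and 74.6 to 85.6 at E15.5. At every stage all 7 Cajal-Retzius markers were higher in Ebf2-EGFP+ cells, against 36.8%, 32.1% and 25.8% of all listed genes in the order of the stages. Of 7 markers of microglia and macrophages 1 was in the table, at no more than 0.359 FPKM at E11.5. None of the markers of the meningeal, endothelial, erythroid and ganglionic lists was at 0 in both Ebf2-EGFP- libraries of E11.5. Their part in the results for the 6 genes was not tested.

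All 6 genes were lower in Ebf2-EGFP+ than in Ebf2-EGFP- cells at all 3 stages, with no overlap in any of the 18 comparisons, since both Ebf2-EGFP+ libraries lay below both Ebf2-EGFP- libraries. Among all listed genes, 50.1% had both Ebf2-EGFP+ libraries below both Ebf2-EGFP- libraries at E11.5, then 49.7% at E13.5, then 44.6% at E15.5, and 32.5% at all 3 stages. The adjusted p passed the threshold in all 18 comparisons. By the study's account the listed genes had been chosen for differences between the sorted populations in these same libraries. These calls are therefore no independent support, and the adjustment covers only the chosen genes. The shares of all listed genes called lower were 44.9%, 43.5% and 31.6% in the order of the stages, so a count of 6 of 6 stands against a background in which a large part of the table moved the same way. In bulk RNA a lower value can come from fewer cells of a type or from less RNA per cell, and the 2 cannot be told apart here. The plot of the levels in each library shows these separations gene by gene.

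**Figure D1:**
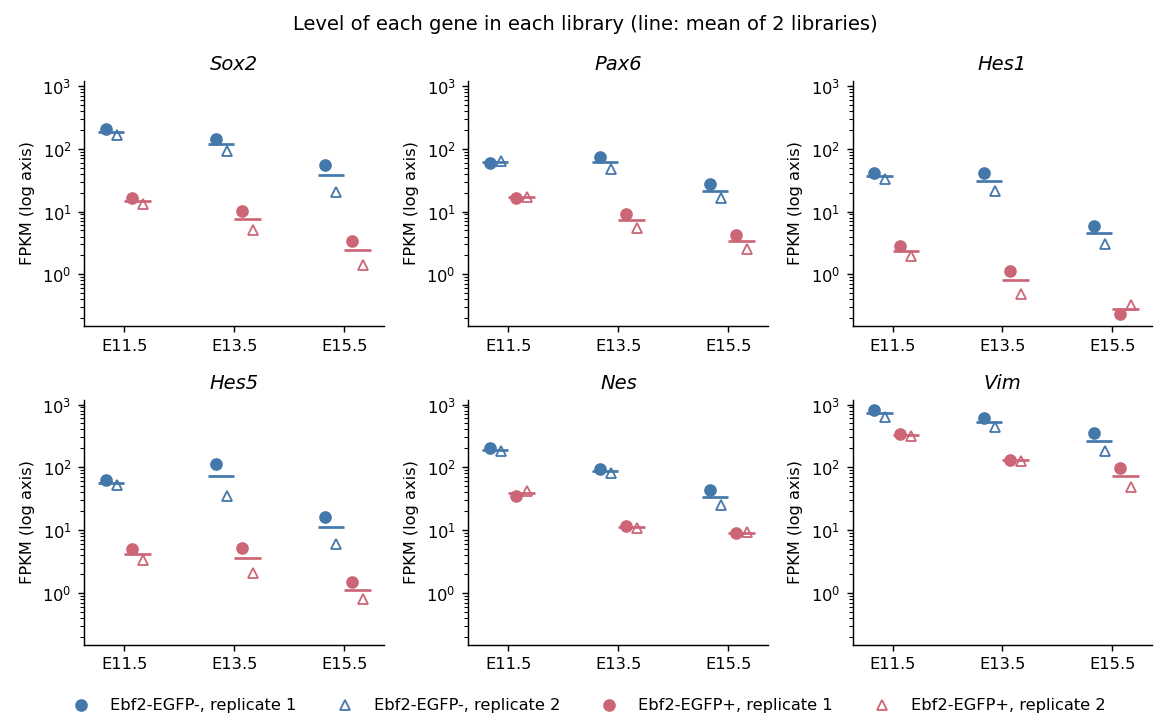
FPKM (log axis) of each gene in each of the 12 libraries by stage, with Ebf2-EGFP- in blue and Ebf2-EGFP+ in red, replicate 1 as filled circles, replicate 2 as open triangles and the mean of the 2 libraries as a line. The red points lie below the blue points of their stage in all 18 pairs of gene and stage, from *Vim* at 816 FPKM in its highest library to *Hes1* at 0.235 in its lowest.

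*Sox2* encodes an SRY-box transcription factor that keeps neural stem cells in the progenitor state. It is a gene of 1 exon at chr3:34650405-34652461 on the + strand (GRCm38, which is mm10), and it lies inside the longer noncoding gene *Sox2ot* on the same strand, so that fragments of the overlap could be counted for either. In Ebf2-EGFP- cells *Sox2* measured 210 and 165 FPKM at E11.5, then 144 and 90.5 at E13.5, then 55.0 and 20.5 at E15.5. Its Ebf2-EGFP+ libraries held 16.2 and 13.3 FPKM at E11.5, then 10.03 and 5.09 at E13.5, then 3.37 and 1.42 at E15.5. Even its lowest Ebf2-EGFP- library, at E15.5, was above its highest Ebf2-EGFP+ library, at E11.5. The difference on the log2(FPKM + 1) scale was -3.57 ± 0.43 (SE, n = 2 libraries a group) at E11.5, with an adjusted p of 1.53e-05 in limma. It was -3.82 at E13.5 (limma adjusted p = 2.07e-05) and then -3.41 at E15.5 (limma adjusted p = 6.27e-05), with the same SE. As a ratio of means, Ebf2-EGFP+ cells held 7.88%, 6.43% and 6.35% of the *Sox2* of Ebf2-EGFP- cells at the 3 stages, a nearly constant share while both levels went down.

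*Pax6* encodes a paired-box and homeobox transcription factor of dorsal, cortical progenitors. It lies at chr2:105668900-105697364 on the + strand, and its 5′ end overlaps *Pax6os1* on the opposite strand, and no source states that the libraries keep the strand of the RNA. *Pax6* measured 58.3 and 63.1 FPKM in the Ebf2-EGFP- libraries of E11.5, then 73.8 and 47.8 at E13.5, then 27.1 and 16.2 at E15.5. Its Ebf2-EGFP+ libraries held 16.6 and 17.2 FPKM, then 9.27 and 5.57, then 4.26 and 2.56. No Ebf2-EGFP+ library reached an Ebf2-EGFP- library of its own stage, although both of E11.5 were above the lower Ebf2-EGFP- library of E15.5. The log2 difference was -1.79 ± 0.29 at E11.5 (limma adjusted p = 0.000141), then -2.88 at E13.5 (limma adjusted p = 1.07e-05), then -2.34 at E15.5 (limma adjusted p = 5.60e-05). Ebf2-EGFP+ cells held 27.8%, 12.2% and 15.8% of the Ebf2-EGFP- mean in the order of the stages.

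*Hes1* encodes a basic helix-loop-helix repressor that is a direct target of Notch signalling. It lies at chr16:30064384-30067796 on the + strand. *Hes1* measured 41.2 and 33.4 FPKM in the Ebf2-EGFP- libraries of E11.5, then 40.7 and 21.3 at E13.5, then 5.94 and 3.02 at E15.5. Its Ebf2-EGFP+ libraries held 2.79 and 1.98 FPKM at E11.5, then 1.13 and 0.478 at E13.5, then 0.235 and 0.323 at E15.5. It had the lowest mean of the 6 genes in all 6 groups, and in Ebf2-EGFP+ cells at E15.5 both libraries were under 1 FPKM, the amount added before the logarithm. The log2 difference was -3.50 ± 0.32 at E11.5 (limma adjusted p = 2.37e-06), then -4.11 at E13.5 (limma adjusted p = 3.55e-06), then -2.05 at E15.5 (limma adjusted p = 0.000282). As ratios of mean FPKM the shares were 6.39%, 2.59% and 6.22%, so that the share at E15.5 was close to that at E11.5 although the log2 difference was smaller.

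*Hes5*, the second HES repressor under Notch control, lies at chr4:154960923-154962371 on the + strand and overlaps the noncoding gene *Gm20421* on the opposite strand. Its promoter is shown because RBPJ, the DNA-binding partner of the Notch receptor, acts through the core letters TGGGAA, and *Hes5* was the 1 gene of the 5 with a promoter entry (RefSeq, GRCm38.p6) whose window held them. The window is the 250 bases before the start site, chr4:154960673-154960922 on the + strand, searched on both strands, with the matches in capitals.

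Hes5: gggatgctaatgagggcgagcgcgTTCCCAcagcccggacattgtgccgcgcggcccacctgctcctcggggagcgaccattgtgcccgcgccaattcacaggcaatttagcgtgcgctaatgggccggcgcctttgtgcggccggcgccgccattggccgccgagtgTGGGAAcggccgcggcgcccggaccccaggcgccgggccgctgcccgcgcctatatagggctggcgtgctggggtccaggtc

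The 2 matches begin at positions -226 and -82 from the start site, on opposite strands. Of 32851 promoter windows of the same length, 21.6% held at least 1 match and 2.77% held 2 or more. A match describes the letters only, and binding was not measured here. The windows of *Sox2*, *Pax6*, *Nes* and *Vim* held no match. *Hes1* had no promoter entry, so it was not searched and cannot be compared with *Hes5* here.

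*Hes5* measured 61.9 and 51.2 FPKM in the Ebf2-EGFP- libraries of E11.5, then 113 and 34.7 at E13.5, then 16.1 and 6.03 at E15.5. The values in Ebf2-EGFP+ cells were 4.99 and 3.28 FPKM, then 5.17 and 2.06, then 1.46 and 0.784. The 2 Ebf2-EGFP- libraries of E13.5 lay 3.26-fold apart, the widest gap between replicates of any of the 6 genes, and they enclosed both libraries of E11.5. The log2 difference between the populations was -3.50 ± 0.53 at E11.5 (limma adjusted p = 7.50e-05), then -3.88 at E13.5 (limma adjusted p = 6.29e-05), then -2.39 at E15.5 (limma adjusted p = 0.00249). Ebf2-EGFP+ cells held 7.31%, 4.90% and 10.1% of the Ebf2-EGFP- mean at the 3 stages.

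*Nes* encodes nestin, the large intermediate filament protein after which neural stem cells are commonly stained. It lies at chr3:87971078-87980451 on the + strand. *Nes* measured 199 and 182 FPKM in the Ebf2-EGFP- libraries of E11.5, then 94.8 and 81.8 at E13.5, then 42.8 and 24.8 at E15.5. The values in Ebf2-EGFP+ cells were 34.6 and 42.6 FPKM, then 11.7 and 10.7, then 8.99 and 9.20. Its replicates lay at most 1.23-fold apart in 5 groups and 1.72-fold apart in Ebf2-EGFP- cells at E15.5. The log2 difference was -2.28 ± 0.21 at E11.5 (limma adjusted p = 2.69e-06), then -2.87 at E13.5 (limma adjusted p = 3.18e-06), then -1.74 at E15.5 (limma adjusted p = 5.10e-05). The shares of the Ebf2-EGFP- mean were 20.3%, 12.7% and 26.9%.

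*Vim* encodes vimentin, an intermediate filament protein of radial glia that is also made by mesenchymal, endothelial and other cells and by some young neurons. It lies at chr2:13573927-13582826 on the + strand. *Vim* measured 816 and 638 FPKM in the Ebf2-EGFP- libraries of E11.5, then 606 and 435 at E13.5, then 353 and 181 at E15.5. The values in Ebf2-EGFP+ cells were 338 and 311 FPKM, then 132 and 125, then 97.0 and 47.8. The log2 difference was -1.15 ± 0.34 at E11.5 (limma adjusted p = 0.00828), then -1.99 at E13.5 (limma adjusted p = 0.000311), then -1.88 at E15.5 (limma adjusted p = 0.000772). Ebf2-EGFP+ cells held 44.6%, 24.7% and 27.1% of the Ebf2-EGFP- mean. Without Ebf2-EGFP- replicate 1 the difference at E11.5 was -0.97 and its adjusted p was 0.0632, which was the 1 population call of the 18 that depended on a single library.

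**Figure D2:**
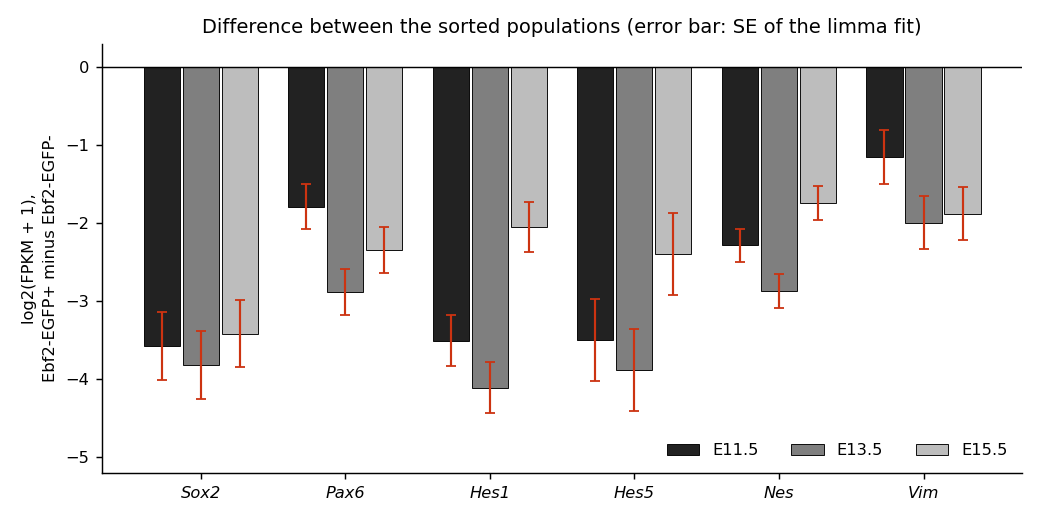
Difference in log2(FPKM + 1) between Ebf2-EGFP+ and Ebf2-EGFP- cells for each gene at E11.5 (black), E13.5 (dark grey) and E15.5 (light grey), with the SE of the limma fit as the error bar. All 18 bars lie below 0, from -1.15 for *Vim* at E11.5 to -4.11 for *Hes1* at E13.5.

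The shares that remained in Ebf2-EGFP+ cells can be read against the 4316, 4157 and 4096 listed genes whose Ebf2-EGFP- mean was at least 1 FPKM in the order of the stages. Over these genes the median share was 67.4%, 72.6% and 88.5%. *Hes1* had a smaller share than all but 58, 13 and 41 of them at the 3 stages, *Sox2* than all but 89, 100 and 44, and *Hes5* than all but 73, 50 and 140. For *Vim* 1593, 710 and 489 genes had a smaller share. *Pax6* had 820, 255 and 280 genes below it and *Nes* had 515, 274 and 485, so that *Pax6* was lowered less than *Nes* at E11.5. These places are a description, since every listed gene had been chosen for a difference.

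The order of the levels within a group was much alike in all groups at its ends. By the mean, *Vim* was highest and *Hes1* lowest in all 6 groups, and neither overlapped the gene with the next mean in any group. *Hes1* did overlap *Hes5* in Ebf2-EGFP- cells at E13.5, at 40.7 and 21.3 FPKM against 113 and 34.7. *Vim* took place 18 of the 4859 listed genes in Ebf2-EGFP- cells of E11.5 and was still at place 357 in Ebf2-EGFP+ cells at E15.5. In Ebf2-EGFP- cells the libraries of *Sox2* and *Nes* overlapped at all 3 stages, so these neighbours did not differ beyond their spread. *Pax6* and *Hes5* overlapped at E11.5 and E13.5 in Ebf2-EGFP- cells and were apart at E15.5, where the mean of *Pax6* was 1.95 times that of *Hes5*. In Ebf2-EGFP+ cells *Nes* was above *Sox2* and *Pax6* without overlap at every stage, whereas *Sox2* and *Pax6* overlapped at E13.5 and E15.5.

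This change of order can be put as the ratio of 2 genes within a library, a quantity that barely depends on how libraries are scaled. The log2 ratio of *Sox2* to *Pax6*, each with 1 added, was 1.83 and 1.37 in the Ebf2-EGFP- libraries of E11.5, then 0.96 and 0.91 at E13.5, then 1.00 and 0.32 at E15.5. The Ebf2-EGFP+ libraries gave -0.03 and -0.35, then 0.10 and -0.11, then -0.27 and -0.56. Every Ebf2-EGFP+ library was below every Ebf2-EGFP- library of its stage. Over the 3 stages the log2 ratio in Ebf2-EGFP+ minus that in Ebf2-EGFP- cells was -1.27 (exact permutation within stages, two-sided p = 0.00926, the smallest that this design allows, adjusted over 3 ratios 0.0278). With libraries of the same number taken as pairs it was lower in 6 of 6 pairs, and the exact sign-flip p was 0.0312, again the smallest possible, and 0.0938 after adjustment, which does not pass.

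The log2 ratio of *Nes* to *Vim* was -2.03 and -1.80 in the E11.5 libraries of Ebf2-EGFP- cells, -2.66 and -2.40 in those of E13.5, and -3.02 and -2.81 in those of E15.5. The Ebf2-EGFP+ libraries gave -3.25 and -2.84, then -3.38 and -3.42, then -3.29 and -2.26. The populations were apart at E11.5 and E13.5 and overlapped at E15.5, where the difference of the means was 0.14 with the opposite sign. Over the 3 stages the difference was -0.62 (exact permutation p = 0.0463, adjusted 0.0694), which did not pass. The log2 ratio of *Hes5* to *Hes1* differed by -0.04 (exact permutation p = 0.907), with libraries of the populations overlapping at each stage. That value rests on the 1 added to low levels, since without it the difference was 0.66 (exact permutation p = 0.0370).

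**Figure D3:**
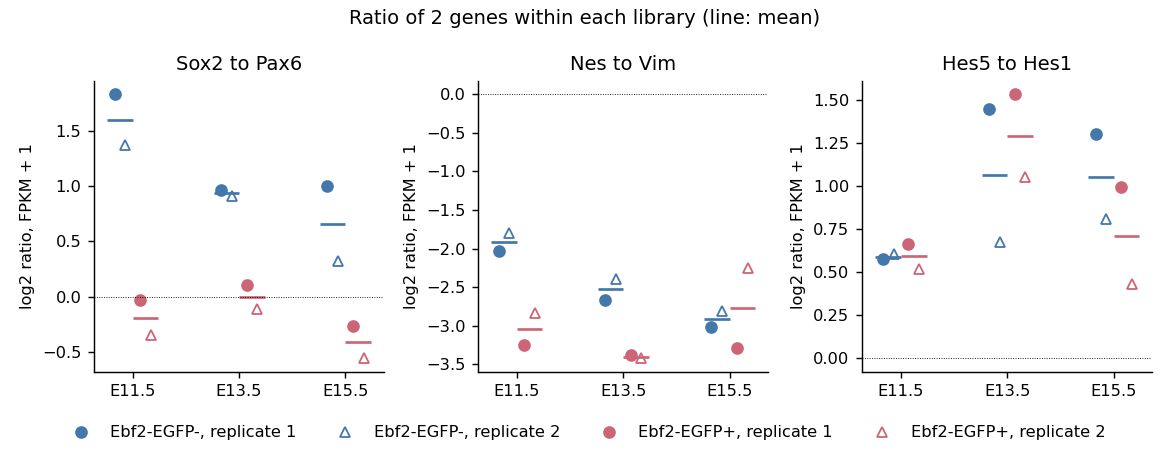
log2 ratio of *Sox2* to *Pax6*, of *Nes* to *Vim* and of *Hes5* to *Hes1* within each library, with 1 added to each FPKM, by stage and population, with points for libraries and lines for means of 2 libraries. In the left panel the Ebf2-EGFP+ points lie between -0.56 and 0.10 and the Ebf2-EGFP- points between 0.32 and 1.83.

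With age the 6 genes went down in both populations, and the step in which a fall was called differed between genes. From E11.5 to E13.5 the calls also differed between the populations. In the main fit no interaction of that step, given below, passed the threshold, so the calls do not show that the populations differed. In Ebf2-EGFP- cells *Nes* was the 1 gene of the 6 that fell from E11.5 to E13.5, by 1.10 on the log2 scale (limma adjusted p = 0.00113), to 46.4% of its E11.5 mean, against 33.5% of all listed genes called lower in that step. *Sox2* had a log2 difference of -0.70 and *Vim* of -0.49 in the same step, with the later libraries below the earlier ones but limma adjusted p of 0.182 and 0.232. *Sox2* passed with only the compared groups in the fit (limma adjusted p = 0.0402). *Pax6*, *Hes1* and *Hes5* had overlapping libraries, with log2 differences of -0.03, -0.32 and 0.15. From E13.5 to E15.5 all 6 genes fell in Ebf2-EGFP- cells, against 34.8% of listed genes called lower. *Hes5* fell by 2.54 (limma adjusted p = 0.00183) and *Hes1* by 2.53 (limma adjusted p = 0.000205), to 15.01% and 14.4% of their E13.5 means. *Vim* fell least, by 1.02 (limma adjusted p = 0.0219), to 51.3%. Without replicate 1 of E13.5 or without replicate 2 of E15.5, the calls for *Sox2* and *Vim* in this step were lost, with limma adjusted p between 0.0505 and 0.211, and that for *Vim* was also lost with only the compared groups in the fit (limma adjusted p = 0.0607).

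Between E11.5 and E13.5, 4 of the 6 genes were called lower in Ebf2-EGFP+ cells, against 36.1% of listed genes called lower. A median-of-ratios scaling made that split of all listed genes more even, with 1449 of 2792 called genes lower against 1755 of 2812 without it. *Nes* fell by 1.69 on the log2 scale (limma adjusted p = 5.88e-05), to 29.1% of its E11.5 mean. *Vim* fell by 1.33 (limma adjusted p = 0.00624), *Pax6* by 1.12 (limma adjusted p = 0.00650) and *Hes1* by 0.92 (limma adjusted p = 0.0285). *Sox2* differed by -0.94 (limma adjusted p = 0.0829) and *Hes5* by -0.22 (limma adjusted p = 0.733). Without Ebf2-EGFP+ replicate 2 of E13.5 the count was 2, with *Pax6* at an adjusted p of 0.0751 and *Hes1* at 0.194, and the call for *Hes1* was also lost without replicate 1 or replicate 2 of E11.5 (adjusted p = 0.160 and 0.0533 in limma). From E13.5 to E15.5 *Sox2* fell by 1.33 (limma adjusted p = 0.0283) and *Pax6* by 0.92 (limma adjusted p = 0.0249), against 17.3% of listed genes called lower. *Vim* differed by -0.90 (limma adjusted p = 0.0527), and *Nes*, at 11.2 and then 9.09 FPKM on average, by -0.28 (limma adjusted p = 0.329). With only the compared groups in the fit, *Sox2* passed in the first step (limma adjusted p = 0.0124) and *Pax6* was lost in the second (limma adjusted p = 0.0537). The count of the second step was 0 without Ebf2-EGFP+ replicate 1 of E13.5, or without replicate 2 of E15.5.

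Between the first and the last stage all 6 genes fell in both populations, against 47.6% of listed genes called lower in Ebf2-EGFP- and 42.1% in Ebf2-EGFP+ cells. The largest of these falls in Ebf2-EGFP- cells was that of *Hes1*, by 2.85 on the log2 scale, which was left at 12.02% of its E11.5 mean. *Nes* was left at 17.7%, *Hes5* at 19.6%, *Sox2* at 20.2%, *Pax6* at 35.6% and *Vim* at 36.7%. In Ebf2-EGFP+ cells *Hes1* was left at 11.7%, *Sox2* at 16.2%, *Pax6* at 20.2%, *Vim* at 22.3%, *Nes* at 23.6% and *Hes5* at 27.1%. The fall of *Hes5* in Ebf2-EGFP+ cells, of 1.27 (limma adjusted p = 0.0444), lost its call without any 1 of the 4 libraries compared (limma adjusted p from 0.0643 to 0.198). A median-of-ratios scaling moved the median of all listed genes in the Ebf2-EGFP- comparison of E11.5 with E15.5 from -0.32 to -0.10, and under it all 6 genes were still called lower in both populations. In Ebf2-EGFP- cells all 10 neuron markers were higher at E15.5 than at E11.5, against 37.7% of all listed genes. The summed ganglionic and erythroid markers of these cells were lower at E15.5 than at E11.5. The part of such markers in the falls of the 6 genes was not tested.

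Whether the gap between the populations itself changed with age was tested as an interaction, the log2 difference at the later stage minus that at the earlier one. From E11.5 to E13.5 no gene of the 6 passed, against 35.2% of listed genes, and the nearest was *Pax6*, whose log2 difference changed by -1.09 (limma adjusted p = 0.0597), then *Nes* at -0.59 (limma adjusted p = 0.152) and *Vim* at -0.84 (limma adjusted p = 0.197). At an unadjusted p of 0.05 the count was 1. With libraries of the same number taken as pairs within a stage, 2 genes passed, *Pax6* (limma adjusted p = 0.000225) and *Vim* (limma adjusted p = 0.00171). From E13.5 to E15.5 the gap narrowed for *Hes1* by 2.06 (limma adjusted p = 0.0179) and for *Nes* by 1.13 (limma adjusted p = 0.0340), against 12.6% of listed genes changed in either direction. With the pairs 4 genes passed in that step, these 2, *Hes5* at 1.49 (limma adjusted p = 0.00418) and *Pax6* at 0.54 (limma adjusted p = 0.0226). From E11.5 to E15.5 *Hes1* alone passed, at 1.46 (limma adjusted p = 0.0166), against 59.8% of listed genes, and with the pairs *Hes5*, *Vim* and *Pax6* passed as well, at 1.11, -0.72 and -0.56.

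With only the compared groups in the fit, *Pax6* and *Vim* passed from E11.5 to E13.5 (limma adjusted p = 0.0246 and 0.0364), and *Hes1* and *Nes* were lost from E13.5 to E15.5 (limma adjusted p = 0.0680 and 0.0923). The 2 values for *Hes1* depend on the 1 added to levels under 1 FPKM. With 0.1 added, the interaction from E11.5 to E15.5 was 0.40 (limma adjusted p = 0.593) and that from E13.5 to E15.5 was 1.61 (limma adjusted p = 0.110). For *Nes*, whose lowest library was at 8.99 FPKM, the limma adjusted p with 0.1 added was 0.0451. Single libraries also decided these calls. From E13.5 to E15.5 the call for *Hes1* was lost without Ebf2-EGFP- replicate 1 or Ebf2-EGFP+ replicate 2 of E13.5, or without replicate 2 of either population at E15.5 (limma adjusted p from 0.0514 to 0.0753). The call for *Nes* was lost without any 1 of these 4 libraries and without Ebf2-EGFP+ replicate 1 of E13.5 or of E15.5 (limma adjusted p from 0.0589 to 0.135). From E11.5 to E15.5 the call for *Hes1* was lost without Ebf2-EGFP- replicate 1 or Ebf2-EGFP+ replicate 2 of E11.5, or without Ebf2-EGFP- replicate 2 of E15.5 (limma adjusted p from 0.0618 to 0.0654).

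The other genes of the Notch pathway did not all go the way of *Hes1* and *Hes5*. Of the 4 receptor genes, 3 were in the table, and all 3 were lower in Ebf2-EGFP+ cells at every stage. In the order of the stages, 44.9%, 43.5% and 31.6% of all listed genes were called lower. *Notch1* averaged 56.5 FPKM at E11.5 without EGFP and 11.4 with it, a log2 difference of -2.20 (limma adjusted p = 5.62e-06). *Notch2* differed by -2.65 and *Notch3* by -3.24 at that stage. At E15.5 the differences of *Notch1*, *Notch2* and *Notch3* were -2.87, -1.91 and -1.68.

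Of the 5 genes for Notch ligands, 4 were in the table, and at E11.5 they went the other way or showed no call. *Dll3* was higher in Ebf2-EGFP+ cells at E11.5, at 41.1 FPKM on average, by 1.70 (limma adjusted p = 3.10e-05). *Jag2* was higher by 1.49 (limma adjusted p = 8.91e-05), and *Dll1*, at 56.5 against 38.7 FPKM, by 0.53, just past the threshold (limma adjusted p = 0.0496). *Jag1* differed by -0.32 (limma adjusted p = 0.127). At E13.5 *Dll1* and *Jag1* were lower, with differences of -0.66 (limma adjusted p = 0.0210) and -0.76 (limma adjusted p = 0.00328), *Jag2* was higher by 0.65 (limma adjusted p = 0.0220) and *Dll3* showed no call. By E15.5 *Dll1* was lower in Ebf2-EGFP+ cells, with a difference of -0.97 (limma adjusted p = 0.00393), and *Dll3*, *Jag1* and *Jag2* showed no call. The share of all listed genes called higher was 36.8% at E11.5.

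Of 15 modulators of the pathway, 11 were in the table, of which 6 were lower and 5 higher in Ebf2-EGFP+ cells at E11.5. The shares of all listed genes were 44.9% lower and 36.8% higher. *Lfng*, which encodes a glycosyltransferase that modifies Notch receptors, differed by -2.45, -3.18 and -1.55 at the 3 stages, and *Nrarp*, a Notch target that feeds back on the pathway, by -2.84, -2.12 and -1.91. *Mfng*, a relative of *Lfng*, was higher at E11.5, by 0.87, and lower at E13.5 and E15.5, with differences of -1.33 and -2.39. *Dlk1* differed by -0.65, -0.65 and -0.68. Named after their values were seen, the other 4 higher genes at E11.5 were *Rfng*, *Numbl*, *Rbpj* and *Maml3*.

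Of 7 other Hes and Hey genes, 4 were in the table. *Hes6*, which encodes a factor that counters HES1 and promotes neuronal differentiation, averaged 63.0 FPKM at E11.5 without EGFP and 94.6 with it, a difference of 0.57 that did not pass (limma adjusted p = 0.0591), and it was lower at the later stages, with differences of -1.01 and -0.95. *Hey1* differed by -0.43 at E11.5 (limma adjusted p = 0.179), by -1.46 at E13.5 and by -0.83 at E15.5. *Hey2* was lower at every stage, with differences of -1.06, -1.58 and -0.63, and *Heyl* with differences of -1.21, -0.67 and -0.37, both from low levels of at most 2.68 FPKM on average, where adding 1 weighs most. As ratios of mean FPKM, *Heyl* in Ebf2-EGFP+ cells was at 7.18%, 5.30% and 10.01% of its Ebf2-EGFP- level, and *Hey2* at 21.5%, 8.13% and 19.2%. In Ebf2-EGFP+ cells 2 of the 4 listed genes were under 1 FPKM in both libraries of each stage, and ratios of such low levels are imprecise.

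**Figure D4:**
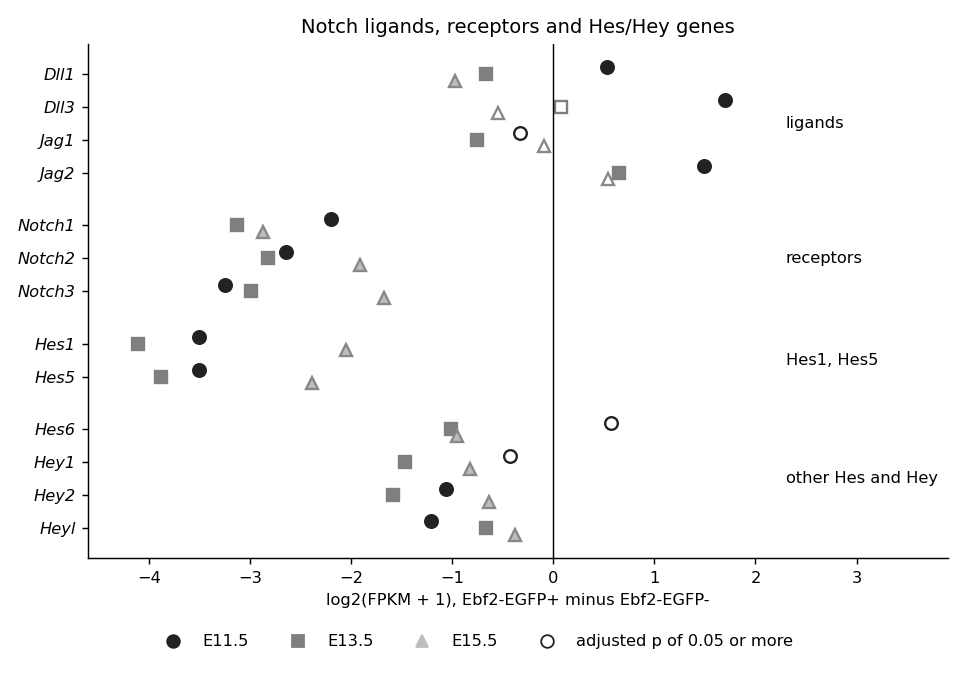
Difference in log2(FPKM + 1) between Ebf2-EGFP+ and Ebf2-EGFP- cells for the listed Notch ligand, receptor, Hes and Hey genes at E11.5 (circles), E13.5 (squares) and E15.5 (triangles), open where the limma adjusted p was 0.05 or more. The receptors and *Hes1* and *Hes5* lie at -1.68 or below at every stage, and 3 of 4 ligands lie above 0 at E11.5.

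Beyond the 6 genes, 20 of 22 other genes known from radial glia were in the table. In Ebf2-EGFP+ cells 16, 19 and 17 of them were lower in the order of the stages, with medians of -2.55, -2.99 and -2.17, against medians of -0.19, -0.19 and -0.11 over all listed genes and of -2.89, -3.35 and -2.20 over the 6 genes. The shares of all listed genes called lower were 44.9%, 43.5% and 31.6%. *Sox1*, a relative of *Sox2*, differed by -3.38, -3.47 and -3.23. *Ednrb*, the endothelin receptor of progenitors, differed by -3.68, -3.63 and -2.48, the lipid-binding *Fabp7* by -3.59, -2.93 and -2.99, and the glycolytic *Aldoc* by -2.12, -4.25 and -3.13. Exceptions, named after their values were seen, were *Lhx2*, higher by 0.56 in Ebf2-EGFP+ cells at E11.5 (limma adjusted p = 0.0371), and *Emx2*, higher by 1.21 at E15.5 (limma adjusted p = 0.00553). With age these genes did not move together in Ebf2-EGFP- cells, where 12 of the 20 fell and 4 rose between the first and the last stage, while all 6 described here fell. Of all listed genes, 47.6% were called lower and 37.7% higher in that comparison. *Aldoc* rose by 2.24 and *Fabp7* differed by 0.17.

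Proneural genes and genes of intermediate progenitors showed another pattern. All 7 proneural and intermediate progenitor genes were in the table, and at E11.5 their calls were mixed. In Ebf2-EGFP+ cells 1 was lower, 2 were higher and 4 showed no call, with differences from -2.87 to 3.72. Among all listed genes 44.9% were called lower and 36.8% higher at that stage. *Neurog2* differed by 0.68 (limma adjusted p = 0.140), *Neurog1* by 0.86 (limma adjusted p = 0.0606) and *Btg2* by -0.24 (limma adjusted p = 0.257). The 2 higher genes, named after their values were seen, were *Eomes*, at 140 against 9.87 FPKM, and *Insm1*, at 42.1 against 18.8. At E13.5 and at E15.5 all 7 were lower in Ebf2-EGFP+ cells, against 43.5% and 31.6% of all listed genes. *Neurog2* in Ebf2-EGFP- cells went from 21.5 to 125 FPKM between E11.5 and E13.5 and was at 48.1 at E15.5. At E15.5 it stood above its E11.5 level (by 1.00, limma adjusted p = 0.0359), while *Hes1* and *Hes5* stood below theirs. Of the 7 genes, 4 were called higher and 2 lower at E15.5 than at E11.5 in these cells. The shares of all listed genes were 37.7% higher and 47.6% lower. Whether these changes are linked to those of *Hes1* and *Hes5* was not tested.

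All 10 cell cycle genes were lower in Ebf2-EGFP+ cells at every stage, with medians of -1.71, -2.38 and -2.09, and all 10 fell in both populations between the first and the last stage. Of all listed genes, 44.9%, 43.5% and 31.6% were called lower in Ebf2-EGFP+ cells at the 3 stages. Between the first and the last stage 47.6% were called lower in Ebf2-EGFP- and 42.1% in Ebf2-EGFP+ cells. *Mcm5*, which encodes a subunit of the replication helicase, differed by -2.50, -2.73 and -1.70. Of 11 other intermediate filament genes, 3 were in the table, all of them neuronal. *Ina*, which encodes internexin, averaged 330 FPKM at E11.5 with EGFP and 30.2 without it, and was higher in Ebf2-EGFP+ cells at every stage, by 3.40, 2.04 and 1.46, the reverse of *Nes* and *Vim*. The neurofilament genes *Nefl* and *Nefm* were higher at E11.5 and E13.5 and differed by -0.40 and -0.33, without a call, at E15.5.

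By the median, replicate 1 stood above replicate 2 in the 6 genes by more than over the whole table. In Ebf2-EGFP- cells replicate 1 was above replicate 2 for 6 of 6 genes at E13.5 and at E15.5, with median log2 differences of 0.64 and 0.88, against 0.0876 and 0.0997 over all listed genes. Those medians keep the sign, and the median absolute log2 difference over all listed genes was 0.246 and 0.224. At E15.5 *Sox2* lay 2.68-fold apart between these 2 libraries, *Hes5* 2.67-fold, *Hes1* 1.97-fold, *Vim* 1.95-fold, *Nes* 1.72-fold and *Pax6* 1.67-fold. The 10 cell cycle genes moved with them, higher in replicate 1 for 10 of 10 genes at both stages (medians 0.63 and 0.75), and the neuron markers had medians of -0.25 and -0.30. In Ebf2-EGFP+ cells replicate 1 was higher for 6 of 6 genes at E13.5 (median 0.59) and for 4 of 6 at E15.5 (median 0.51), where the cell cycle genes had a median of 0.0103. The part of the cell cycle genes and neuron markers in these gaps was not tested.

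**Figure D5:**
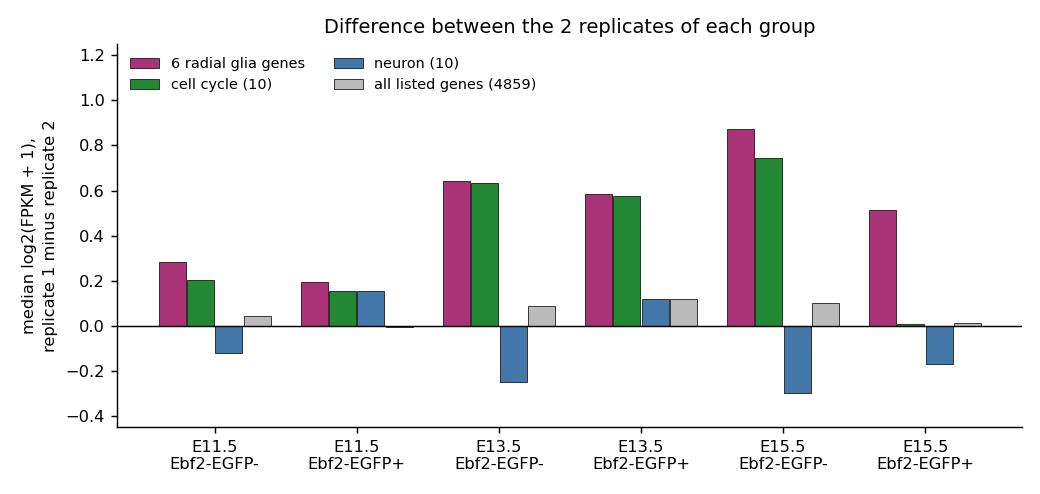
Median over genes of the log2(FPKM + 1) difference, replicate 1 minus replicate 2, in each of the 6 groups, for the 6 radial glia genes, 10 cell cycle genes, 10 neuron markers and all 4859 listed genes. The bars of the 6 genes reach 0.88 in Ebf2-EGFP- cells at E15.5 and 0.64 at E13.5, with the cell cycle bars close to them at 0.75 and 0.63.

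Across the 12 libraries the 6 genes followed each other closely. On the log2(FPKM + 1) scale the 15 pairs had Pearson's r from 0.889, for *Hes5* and *Vim*, to 0.986, for *Sox2* and *Pax6*. These correlations are a description over 12 libraries that fall into 6 groups and share their scaling, and much of them is the step between the populations. The listed genes most like *Sox2* were *Cdca7* (r = 0.994), *2810025M15Rik* (0.992) and *Zfp36l1* (0.991). Those most like *Pax6* were *Ccnd2* (0.997), which encodes the cyclin D2 of cortical progenitors, *Sall1* (0.991) and *Gsta4* (0.989). *Hes1* was most like *Prps1l3* (0.996), *Tanc1* (0.995) and *Dusp16* (0.995), and *Hes5* most like *Trmt2b* (0.990), *Sox21* (0.989) and *H2afz* (0.989). *Nes* was most like *Uhrf1* (0.995) and *Col2a1* (0.993), and *Vim* most like *Tcf3* (0.990), *Fzd2* (0.987) and *Gldc* (0.987). All of the genes named here as most alike were lower in Ebf2-EGFP+ cells at all 3 stages. That is no separate result, since they were chosen for their correlation with the 6 genes over these same libraries.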

How the data were processed

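The authors sequenced oligo-dT selected RNA (paired ends of 100 bases, HiSeq) from 2 libraries of each of 6 groups, aligned the reads to mm10 with TopHat 2.0.8b and computed FPKM with Cufflinks 2.2.0. The deposited FPKM of 4859 coding genes were used as they are. The study's methods give an average read number over the samples, but not the depth of each library. The table holds no counts and low values gave no grid of whole fragments, so no counting interval is given. The columns of the authors' own comparisons (fold, p and q values) and a table of noncoding transcripts were not used, and no other column of library values was left out. The labels number 2 replicates a group. By the study's methods these are biological replicates from pooled embryos, so p-values measure the spread between such pools.

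Groups came from the labels. Differences were tested with limma 3.58.1 (R 4.3.3) with trend on log2(FPKM + 1), with the 12 libraries as 6 groups and Benjamini-Hochberg adjustment over all 4859 genes, and no filter. With a filter on a mean of at least 1 FPKM, 4462 genes and all 6 members stayed. Ratios within a library were tested by exact permutation of the population labels within stages. The steps were tested on simulated data. The study tested its genes with count-based tools (Cuffdiff is in the submitters' processing notes), which FPKM do not allow.

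Same-numbered libraries of both populations deviated together at each stage (correlations of deviations from the group means over genes 0.431, 0.534 and 0.431). The number was therefore taken to pair populations within a stage in an alternative, while the main tests left the libraries unpaired. Across stages the correlations were 0.168, 0.447 and 0.165 in Ebf2-EGFP- and 0.0896, -0.00768 and -0.0421 in Ebf2-EGFP+ cells, and stages were not paired. The 0.447, for E13.5 and E15.5 in Ebf2-EGFP- cells, lies within the range of the values within stages, so these correlations do not settle which libraries belong together.

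The 6 genes, the 15 lists of other genes and the tests were chosen with earlier results of these data known. Named were the 6 genes, the 3 genes with mean FPKM of at least 1 most correlated with each, every listed Notch ligand, receptor, Hes and Hey gene, and up to 4 genes of each other list with the largest mean population difference. From the cell cycle list and the lists of other cell types fewer are named. Some genes that this rule names are not reported here. Positions are from GENCODE on GRCm38, and the promoter is from RefSeq. Alternatives were another pseudocount, median-of-ratios scaling, a filter, limma without trend, the compared groups alone, a replicate block and each library left out in turn.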

Additional observations from a re-analysis of the deposited data

Results flagged for a closer look

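The difference between the populations changed with stage in 3 tests of the interaction that passed the threshold in limma. For *Hes1* it changed by 2.06 on the log2(FPKM + 1) scale from E13.5 to E15.5 and by 1.46 from E11.5 to E15.5, and for *Nes* by 1.13 from E13.5 to E15.5, in each case towards a smaller gap. For *Hes1* the share of the Ebf2-EGFP- mean that was found in Ebf2-EGFP+ cells was 6.39%, 2.59% and 6.22% in the order of the stages, so on the scale of FPKM ratios the gap of E15.5 was about that of E11.5. The 2 pairs of replicates gave 3.95% and 10.7% at E15.5. For *Nes* the share was 20.3%, 12.7% and 26.9%, and the pairs of E15.5 gave 21.0% and 37.0%.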

How the results depend on the processing

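The 18 population differences stayed below 0 in all of their 180 alternatives (-5.13 to -0.89), and 179 kept their call. In Ebf2-EGFP- cells the count of genes lower at E13.5 than at E11.5 was 1, and 2 with only the groups compared. In Ebf2-EGFP+ cells the count lower at E15.5 than at E13.5 was 2, then 4 with a pseudocount of 0.1 and 1 with only the groups compared. The count of genes whose population difference changed between E11.5 and E13.5 was 0, then 1 under median-of-ratios scaling and 2 with only the groups compared. Between E13.5 and E15.5 it was 2, then 1 with the pseudocount of 0.1 and 0 with only the groups compared. Between E11.5 and E15.5 it was 1, and 0 with that pseudocount. The *Sox2* interaction of E11.5 and E15.5, 0.16 and not called, was -0.22 with it, and the uncalled change of *Pax6* in Ebf2-EGFP- cells between E11.5 and E13.5 was 0.14 under median-of-ratios scaling. The log2 ratio of *Hes5* to *Hes1* was 0.51 with a pseudocount of 0.1 and 0.66 with none, and that of *Nes* to *Vim* passed with none (-0.69, exact permutation adjusted p = 0.0370). Having no pseudocount was chosen after seeing the data.

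Pairing same-numbered libraries within a stage (the replicate block) lost no population call. In that fit 2, 4 and 4 interactions passed, and for the *Sox2* to *Pax6* ratio, still -1.27, the adjusted p was 0.0938. Stages were not paired. A block on the number gave counts of 2 genes lower at E13.5 than at E11.5 in Ebf2-EGFP- cells (*Nes*, and *Sox2* with limma adjusted p = 0.0174) and 4 lower at E15.5 than at E13.5 in Ebf2-EGFP+ cells.

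When single libraries were dropped, the count lower in Ebf2-EGFP+ cells ran from 2 to 5 between E11.5 and E13.5 and from 0 to 3 between E13.5 and E15.5. The interaction counts ran from 0 to 1, from 0 to 3 and, between E11.5 and E15.5, from 0 to 2. Uncalled changes between E11.5 and E13.5 that turned sign were, in Ebf2-EGFP- cells, *Pax6* (-0.34 to 0.28), *Hes1* (-0.77 to 0.13) and *Hes5* (-0.68 to 0.99), and in Ebf2-EGFP+ cells *Hes5* (-0.73 to 0.28). Interactions that turned sign were *Sox2* (-0.67 to 0.19) and *Hes5* (-1.21 to 0.46) in the first step, *Sox2* (-0.29 to 1.09) and *Vim* (-0.39 to 0.62) in the second, and *Sox2* (-0.53 to 0.85) over both. The *Hes5* to *Hes1* ratio ran from -0.17 to 0.093. The cause of these changes was not tested.

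Over all listed genes 610 interactions were called between E13.5 and E15.5, 138 with only the groups compared, 1775 with the replicate block and 125 to 1135 with a library left out. Without replicate 1 of E13.5 the genes called between E13.5 and E15.5 went from 3089 to 1962 in Ebf2-EGFP- and from 2035 to 1247 in Ebf2-EGFP+ cells. With 2 libraries a group and the depth of each library unknown, low levels such as those of *Hes1* in Ebf2-EGFP+ cells carry an error that is not given here.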
